A study of Mus musculus with 6 samples.

Results

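The genes described here are the D cyclins (Ccnd1, Ccnd2 and Ccnd3), their kinases Cdk4 and Cdk6, the kinase substrate Rb1, the INK4 inhibitors Cdkn2a, Cdkn2c and Cdkn2d, and the CIP/KIP inhibitor Cdkn1b. They were taken by gene symbol, each symbol matching a single row, which gave 10 of the 47643 genes in the deposited table. RNA-seq was done on sorted L-GMP of C57BL/6 mice, leukaemia cells that resemble granulocyte-macrophage progenitors, the normal source of granulocytes and monocytes. The 3 WT libraries are labelled wild type and the 3 KO libraries are labelled double knockout of Prkaa1 and Prkaa2, the genes of both catalytic alpha subunits of the energy sensor AMPK. The labels name no sex, age, oncogene or way of deleting the Prkaa genes, and do not say whether replicates came from separate mice. All p-values thus rest on the spread between libraries of a genotype, and that spread may be technical.

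In G1, mitogen and cytokine signals raise D cyclins, which bind and activate CDK4 and CDK6. The active kinases phosphorylate RB, which then releases E2F transcription factors and lets S phase genes be transcribed. INK4 proteins bind CDK4 and CDK6 and keep D cyclins from them, while p27, the product of Cdkn1b, acts mainly on CDK2 complexes. In blood cells CDK6 and cyclins D2 and D3 are the forms usually described as dominant, and p18INK4c and p19INK4d are known from the exit of maturing cells from the cell cycle.

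Start site sequences are shown for the genes whose upstream bases held a searched motif, to let their number and place be read. RefSeq sequences of GRCm38.p6, the assembly of mm10, were found for 7 of the 10 genes, with 10 start sites in all. The 250 bases before each start were searched on both strands for the E-box CACGTG and, as a separate set, for the E2F words TTTCCCGC, TTTGGCGC, TTTCGCGC and TTTGCCGC. No word of the first set can overlap a word of the other by more than its end bases, and in the sequences below none did. The sequences run 5′ to 3′ on the gene's strand, with matches in capitals.
Cdk4, E-box, chr10:127063285-127063534, plus strand: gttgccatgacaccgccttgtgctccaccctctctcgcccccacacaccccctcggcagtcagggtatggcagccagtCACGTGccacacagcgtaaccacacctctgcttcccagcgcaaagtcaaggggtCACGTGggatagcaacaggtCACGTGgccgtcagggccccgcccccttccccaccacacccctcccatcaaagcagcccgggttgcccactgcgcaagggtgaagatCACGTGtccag
Cdk6, E-box, chr5:3343643-3343892, plus strand: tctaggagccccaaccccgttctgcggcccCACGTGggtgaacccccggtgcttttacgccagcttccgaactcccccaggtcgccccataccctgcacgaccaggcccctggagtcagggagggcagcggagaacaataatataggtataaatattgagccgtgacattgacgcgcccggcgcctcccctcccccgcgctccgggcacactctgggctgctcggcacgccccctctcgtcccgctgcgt
Cdkn2a, upstream start, E2F, chr4:89294620-89294869, minus strand: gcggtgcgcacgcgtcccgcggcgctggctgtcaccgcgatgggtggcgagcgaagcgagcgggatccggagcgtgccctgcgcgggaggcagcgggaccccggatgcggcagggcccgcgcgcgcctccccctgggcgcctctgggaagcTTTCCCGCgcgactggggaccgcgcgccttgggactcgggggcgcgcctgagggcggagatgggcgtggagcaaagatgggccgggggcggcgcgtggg

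Cdk4 held 4 E-boxes, beginning 172, 118, 98 and 11 bases before its start. At least 4 were held by 7 of the 32851 windows of the same length before all listed start sites (0.0213%). Cdk6 held 1, beginning 220 bases before its start, and at least 1 was held by 6.02% of windows. The E2F words were found once, 99 bases before the upstream start of Cdkn2a, the start of its p19ARF transcript, and were held by 1.86% of windows. These matches describe letters in the reference and not binding in these cells, which was not measured.

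Values are FPKM (reads scaled by gene length and a library factor), given as mean ± SD with n = 3 libraries per genotype. Whole reads recovered from the FPKM values summed to between 11389447 and 16414563 per WT library and between 12371410 and 14024341 per KO library. The library factor implied by the FPKM values was above the recovered reads in each WT library and below them in each KO library. It ranked the 6 libraries as did size factors set by the median gene, and not as the recovered reads did. Rescaling to equal sums, used below, replaces that factor. Genes averaging 1 FPKM or more over the 6 libraries were tested by limma on log2(FPKM + 1), a scale that understates changes of weakly expressed genes, and are said to rise or fall where the adjusted p was under 0.05. By that rule 78.4% of the 9108 tested genes differed between genotypes, 38.0% being higher and 40.4% lower in KO, so passing the test does not set a gene apart here. The FPKM of a library summed to between 463683 and 475654 in WT and between 649611 and 653819 in KO. With libraries rescaled to equal sums, the median log2 change of all tested genes moved from -0.02 to -0.45, and 81.7% differed, 22.7% being higher and 59.0% lower. Rescaling without the 10 most abundant genes, an alternative chosen after seeing the data, gave 78.3%, 36.1% and 42.1%. Directions below were therefore checked on both scales.

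Prkaa1, looked up as a check of the labels, had 2.01, 2.20 and 1.80 FPKM in the WT libraries. It had 1.11, 0.735 and 0.548 in the KO libraries and fell (limma adjusted p = 0.00112), as did 40.4% of tested genes. Prkaa1 reached the minimum mean only through WT, and 138 reads remained in KO against 422 in WT. This fall is therefore a weak check and does not show a deletion. Prkaa2 had 2 reads in all WT libraries together and 4 in all KO libraries, too few to check its deletion. Of the markers of the labelled cell type, 9 of 12 reached 1 FPKM in WT and 10 in KO. Among the 10 tested, 5 rose and 5 fell (4 and 6 with equal sums). Of all tested genes 38.0% rose and 40.4% fell (22.7% and 59.0% with equal sums). Csf3r, among those risen, reached the minimum mean only through KO, and Cd33, among those fallen, only through WT. Kit, a receptor used to gate these progenitors, was among the low ones in WT at 0.250 ± 0.0654 FPKM, against 1.43 ± 0.0243 in KO. Cd34, another gating marker, had 27.8 ± 0.840 FPKM in WT and 3.51 ± 0.157 in KO, and Cd33 had 5.81 ± 0.483 in WT and was at 0 in KO. Among markers that encode granule proteins, Mpo rose 2.77-fold, Prtn3 4.35-fold and Elane 4.51-fold, and Ctsg rose 1.17-fold but was lower with equal sums (log2 change -0.24).

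Markers of other cell types moved with genotype beside every result below, and in such bulk samples more cells of a type and more RNA per cell cannot be told apart. The 11 markers of maturing neutrophils summed to between 317 and 332 FPKM in WT and between 71423 and 72819 in KO, and all 7 that were tested rose, 6 of them with equal sums, where Camp did not pass (Retnlg and Ly6g were at 0 in WT, Mmp9 in KO). The 11 markers of eosinophils, basophils and mast cells summed to between 32.9 and 39.0 in WT and between 576 and 606 in KO, with 8 of 8 tested risen, of which Prg2, Epx, Prss34 and Fcer1a reached the minimum mean only through KO (Epx, Ear1, Prss34 and Fcer1a at 0 in WT, Ear1 in KO). The 12 erythroid markers summed to between 23.6 and 26.7 in WT and between 96.5 and 97.6 in KO, with 7 of 8 tested risen, of which Klf1, Gata1 and Car2 reached the minimum only through KO, and with 6 higher and Tfrc lower under equal sums (Epor, Gata1 and Car1 at 0 in WT, Alas2 in KO). The 8 B cell markers summed to between 52.9 and 57.6 in WT and between 1.94 and 3.25 in KO, with Pax5 at 0 in both genotypes. The 8 monocyte markers summed to between 401 and 417 in WT and between 121 and 131 in KO, with 2 risen, 2 fallen and Mrc1 at 0 in both. Ltf among the neutrophil markers and Fcgr1 among those of monocytes likewise reached the minimum only through KO. The 6 dendritic cell markers summed to between 23.6 and 26.0 FPKM in WT and between 40.6 and 44.6 in KO, a difference made by H2-Ab1 (22.7 ± 1.41 and 42.5 ± 2.01), while Flt3 (1.48 ± 0.148 in WT), Xcr1 and Itgax were at 0 in KO and Cd209a in both. The 6 markers of megakaryocytes summed to between 4.99 and 5.89 and between 12.9 and 14.1 (Gp9, Gp1bb and Ppbp at 0 in both). The 9 markers of T and NK cells summed to between 2.12 and 2.26 in WT and between 0.709 and 1.23 in KO (Cd3e, Cd3g, Cd8a, Ncr1, Klrb1c and Trac at 0 in both), and the 6 of stem cells to between 0.337 and 0.605 and between 1.49 and 1.87. The part of these markers' cells in the results on cell cycle genes was not tested.

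Of the 10 genes, 7 reached the minimum mean and were tested, and all 7 passed the test: Ccnd2, Ccnd3, Rb1 and Cdkn2d rose and Cdk4, Cdk6 and Cdkn2c fell in KO. That share is read against the 78.4% of all tested genes. Rb1 reached the minimum only through its KO values. Ccnd1, Cdkn2a and Cdkn1b lay under the minimum and were not tested. The values of WT and KO libraries did not overlap in any of the 10 genes, as they did not in 55.6% of the 21132 genes above 0 in some library and in 80.6% of the tested genes (39.1% with KO higher, 41.6% with KO lower).

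**Figure D1:**
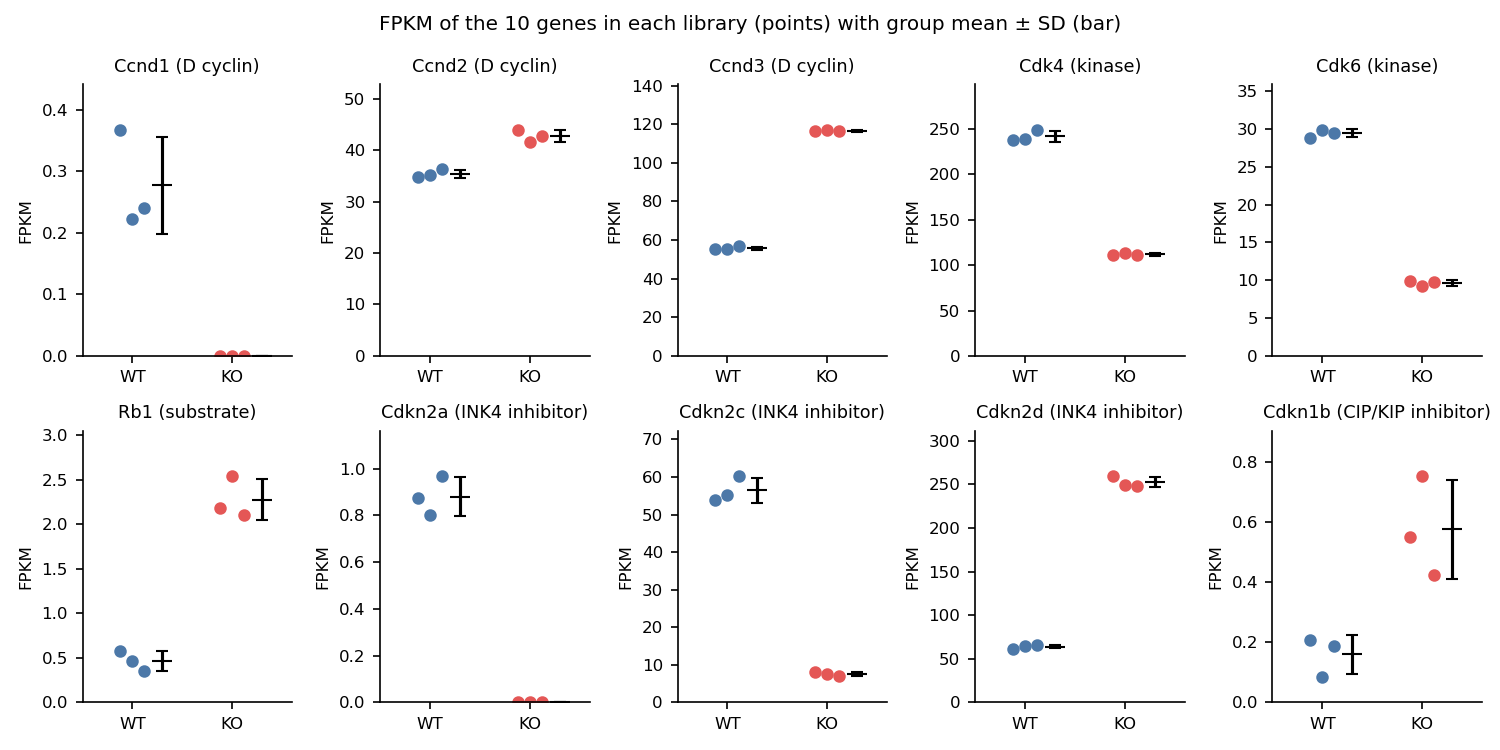
FPKM of each gene (vertical axes, each with its own range from 0) in the WT and KO libraries (points, with mean ± SD of 3 libraries as bars). WT and KO points do not overlap in any panel, and Ccnd1 and Cdkn2a are at 0 in all KO libraries.

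Among the D cyclins, Ccnd3 was the most abundant in both genotypes and rose 2.09-fold in KO. Ccnd3, which encodes cyclin D3 (ENSMUSG00000034165, chromosome 17, 47505051 to 47599691, plus strand, mm10), had 55.3, 55.5 and 56.8 FPKM in the WT libraries and 116, 117 and 116 in the KO libraries. The 3 KO libraries lay within 1 FPKM of each other, far above every WT library. Its log2 change was 1.05 (SE 0.02, limma adjusted p = 3.64e-08) as deposited and 0.59 with equal sums. At its end Ccnd3 shares 4.11% of its exonic bases with Bysl on the opposite strand, a gene that fell from 43.9 ± 1.29 to 11.4 ± 0.870 FPKM.

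Ccnd2, which encodes cyclin D2 and is induced by cytokine receptors in blood cells, had a small difference. Its direction turned only with libraries rescaled to equal sums. It had 34.8, 35.1 and 36.3 FPKM in the WT libraries and 44.0, 41.5 and 42.8 in the KO libraries. Each KO library was above each WT library as deposited, by 1.21-fold on average (log2 change 0.27, SE 0.04, limma adjusted p = 0.000324). With equal sums its log2 change was -0.19 (limma adjusted p = 0.00158), less of a fall than the median of all tested genes on that scale. Equal sums without the 10 most abundant genes gave 0.22, and quantile normalization gave 0.36. As deposited, the log2 change of Ccnd2 exceeded in absolute size that of 26.1% of the tested genes. The gene (ENSMUSG00000000184) lies on chromosome 6, 127125162 to 127152193, minus strand.

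Ccnd1, which encodes cyclin D1 and is the main D cyclin of many epithelial cells, was scarce. It had 0.368, 0.223 and 0.241 FPKM in the WT libraries, from 22, 19 and 16 reads, and was at 0 in all KO libraries. Against a floor of 3 reads over the KO group it was at least 15.7-fold lower in KO, a bound for counting error alone, because amplified reads carry no molecular identifiers here. Ccnd1 (ENSMUSG00000070348, chromosome 7, 144929931 to 144939925, minus strand) shares 23.4% of its exonic bases with a neighbour on the opposite strand, listed as Oraov1, which had 2.23 ± 0.113 FPKM in WT and 3.22 ± 0.289 in KO. No source used here says whether counting used strand, so reads of such shared bases cannot be assigned.

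Summed over the 3 genes, D cyclin RNA was 91.5 ± 1.57 FPKM in WT and 159 ± 0.849 in KO. Ccnd3 made up 61.0 ± 0.161% of the sum in WT and 73.2 ± 0.629% in KO, a difference of 12.1 percentage points. Ccnd2 made up 38.7% and 26.8%, and Ccnd1 0.303% and 0%. These shares are taken within a library and do not depend on scaling between libraries. The Ccnd3 shares of the genotypes did not overlap, and an exact two-sided permutation test gave p = 0.1, the smallest that 3 against 3 libraries allow (0.1 after Benjamini-Hochberg adjustment over the 4 ratios tested).

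Both kinase transcripts fell in KO, Cdk6 by more than Cdk4. Cdk4, the most abundant of the 10 genes in WT, had 238, 238 and 249 FPKM in the WT libraries and 111, 113 and 111 in the KO libraries. The groups did not overlap, and the KO mean was 2.16-fold lower (log2 change -1.11, SE 0.03, limma adjusted p = 3.69e-08), and the log2 change was -1.58 with equal sums. Cdk4 (ENSMUSG00000006728) lies on chromosome 10, 127063534 to 127067920, plus strand, and shares 19.7% of its exonic bases with Tspan31 on the opposite strand. Tspan31 went the other way, from 104 ± 4.03 to 198 ± 4.40 FPKM.

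Cdk6, the other G1 kinase, had 28.9, 29.9 and 29.5 FPKM in the WT libraries and 9.92, 9.24 and 9.81 in the KO libraries. Every KO library lay far below every WT library, 3.05-fold lower on average (log2 change -1.51, SE 0.04, limma adjusted p = 9.51e-08, and -2.01 with equal sums). The gene (ENSMUSG00000040274) spans chromosome 5, 3341485 to 3531008, plus strand. Myc, whose protein is known to bind the E-box shown above, had 37.3 ± 0.475 FPKM in WT and 19.1 ± 0.294 in KO, and its part in the kinase results was not tested.

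Cdk4 exceeded Cdk6 in every library, 8.22 ± 0.232-fold in WT and 11.6 ± 0.588-fold in KO. The Cdk6 share of the summed kinase RNA was 10.8, 11.1 and 10.6% in the WT libraries and 8.18, 7.54 and 8.14% in the KO libraries. The shares did not overlap and differed by -2.90 percentage points (exact permutation p = 0.1, adjusted 0.1). Summed Cdk4 and Cdk6 RNA was 271 ± 6.45 FPKM in WT and 121 ± 1.06 in KO.

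Rb1, which encodes the RB protein that the kinases phosphorylate, rose from a low level. It had 0.576, 0.469 and 0.354 FPKM in the WT libraries and 2.18, 2.54 and 2.11 in the KO libraries, from 125 reads in WT and 506 in KO. The KO mean was 4.89-fold higher, and every KO library was above every WT library. On the log2(FPKM + 1) scale the change was 1.16 (SE 0.10, limma adjusted p = 2.00e-05), and 2.08 with 0.1 in place of the added 1, and the gene rose with equal sums too. Rb1 (ENSMUSG00000022105, chromosome 14, 73183673 to 73325822, minus strand) shares 8.11% of its exonic bases with Rcbtb2 and 6.78% with Lpar6, both on the opposite strand. Neither passed the test: Rcbtb2 had 2.94 ± 0.299 FPKM in WT and 2.92 ± 0.391 in KO, and Lpar6 had 1.19 ± 0.00656 and 1.29 ± 0.136.

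The INK4 genes went in opposite directions. Cdkn2d, which encodes p19INK4d, rose and was the most abundant of the 10 genes in KO. It had 61.7, 64.5 and 65.7 FPKM in the WT libraries and 259, 249.8 and 249 in the KO libraries. The KO mean was 3.95-fold higher, with no overlap (log2 change 1.97, SE 0.03, limma adjusted p = 7.44e-09, and 1.50 with equal sums). Its change was larger in absolute size than that of 92.9% of tested genes. Cdkn2d (ENSMUSG00000096472) lies on chromosome 9, 21288410 to 21291407, minus strand, and shares no exonic base with another gene in the annotation used here. The exonic length in that annotation did not give whole reads for Cdkn2d, so its FPKM may rest on other exons.

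Cdkn2c, which encodes p18INK4c, fell by the largest factor among the tested members. It had 53.9, 55.1 and 60.2 FPKM in the WT libraries and 8.12, 7.48 and 7.11 in the KO libraries, from 6799 reads in WT and 755 in KO. The KO mean was 7.45-fold lower (log2 change -2.74, SE 0.06, limma adjusted p = 3.01e-08, and -3.26 with equal sums), a change larger in absolute size than that of 97.5% of tested genes. In WT, Cdkn2c overlapped Ccnd3 in level, and in KO it lay below Cdk6. The gene (ENSMUSG00000028551) lies on chromosome 4, 109660876 to 109667189, minus strand, with no shared exonic base.

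Cdkn2a, which encodes p16INK4a and, from an upstream first exon, p19ARF, an activator of p53, was scarce in WT and unread in KO. It had 0.873, 0.802 and 0.968 FPKM in the WT libraries, from 13, 17 and 16 reads, and was at 0 in all KO libraries, at least 12.7-fold lower by the floor of 3 reads. Values per gene do not separate the 2 proteins' transcripts. Cdkn2a (ENSMUSG00000044303) lies on chromosome 4, 89274471 to 89294653, minus strand, beside Cdkn2b, the remaining INK4 gene, at 89306299 to 89311039. Cdkn2b had 0.565, 0.317 and 1.53 FPKM in the WT libraries and was also at 0 in all KO libraries, at least 13.2-fold lower. Mtap, a neighbour at 89137122 to 89181081 that was looked up after these zeros were seen, was read in every KO library, at 3.97, 4.05 and 3.98 FPKM against 13.1 ± 0.373 in WT.

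The make-up of INK4 RNA differed between genotypes. In WT, Cdkn2d and Cdkn2c made up 52.8 ± 0.901% and 46.5 ± 0.858% of the summed INK4 RNA, and in KO 97.1 ± 0.129% and 2.91 ± 0.129%. Cdkn2d exceeded Cdkn2c 1.14-fold in WT and 33.5-fold in KO. The INK4 sum was 121 ± 5.25 FPKM in WT and 260.2 ± 6.36 in KO.

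Set against the kinases they bind, the summed INK4 FPKM was higher in KO than in WT. The ratio of summed INK4 to summed Cdk4 and Cdk6 FPKM was 0.437, 0.449 and 0.455 in the WT libraries and 2.21, 2.10 and 2.12 in the KO libraries. On the log2 scale the ratio was -1.16 ± 0.0306 in WT and 1.10 ± 0.0373 in KO, a difference of 2.26 (exact permutation p = 0.1, adjusted 0.1). Without Cdkn2a, which also encodes p19ARF, the difference was 2.27. The D cyclin sum went the same way against the kinases, with a ratio of 0.337 ± 0.00220 in WT and 1.31 ± 0.0152 in KO. The size of such ratios, and which sum is the larger, rest on the gene lengths behind FPKM. For Cdkn2d, which made up most of the INK4 sum in KO, that length is not known. RNA ratios of this kind give no protein level and no kinase activity.

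**Figure D2:**
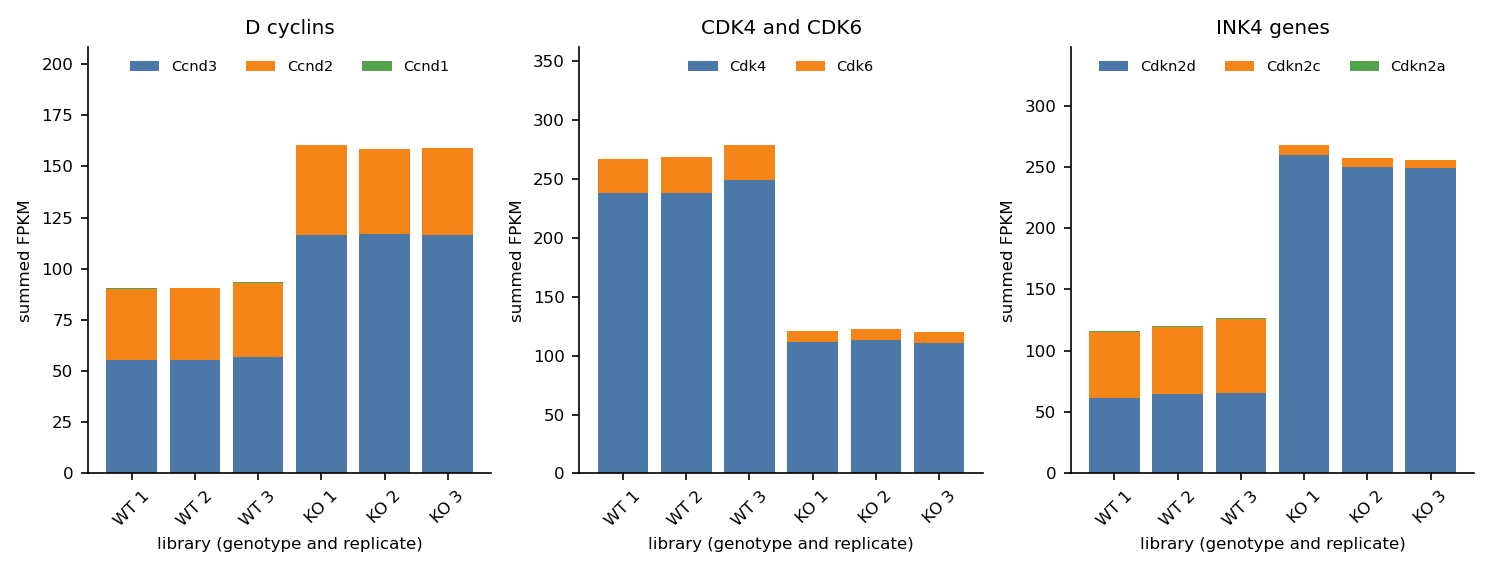
Summed FPKM (vertical axes) of the D cyclins, of Cdk4 and Cdk6, and of the INK4 genes in each library (horizontal axes), with each gene as a layer of the bar. The D cyclin and INK4 sums are higher and the kinase sum is lower in every KO library, and Cdkn2c falls from 46.5% to 2.91% of the INK4 sum.

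Cdkn1b, which encodes p27KIP1, was the scarcest of the 10 genes in WT. It had 0.207, 0.0850 and 0.187 FPKM in the WT libraries and 0.550, 0.752 and 0.424 in the KO libraries, from 31 reads in WT and 96 in KO. The KO mean was 3.60-fold the WT mean, and every KO library was above every WT library (exact permutation p = 0.1). Cdkn1b was under the minimum mean and not tested with the others. A fit without that minimum, in which 49.4% of 21132 genes passed, gave a log2 change of 0.44 (SE 0.09, limma adjusted p = 0.00868), and there Ccnd1 (-0.35, adjusted p = 0.00135) and Cdkn2a (-0.91, adjusted p = 3.39e-05) passed as well. The log2 ratio of Cdkn1b to the D cyclin sum was -9.26 ± 0.697 in WT and -8.15 ± 0.415 in KO, without overlap (difference 1.11, exact permutation p = 0.1, adjusted 0.1). With 1 FPKM added to both terms the difference turned to -0.36, so no direction is read from this ratio. Cdkn1b (ENSMUSG00000003031) lies on chromosome 6, 134920401 to 134925513, plus strand.

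In WT the order of levels per length was Cdk4, Cdkn2d, Cdkn2c, Ccnd3, Ccnd2, Cdk6, Cdkn2a, Rb1, Ccnd1 and Cdkn1b. Cdkn2c and Ccnd3 overlapped between libraries, as did Rb1 and Ccnd1. In KO the order was Cdkn2d, Ccnd3, Cdk4, Ccnd2, Cdk6, Cdkn2c, Rb1 and Cdkn1b, with Ccnd1 and Cdkn2a at 0. No neighbours above 0 overlapped in KO, although Ccnd3 and Cdk4 were close, with 116 FPKM as the lowest Ccnd3 value and 113 as the highest Cdk4 value. Cdk4 thus passed from the first to the third place and Cdkn2c from the third to the sixth.

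**Figure D3:**
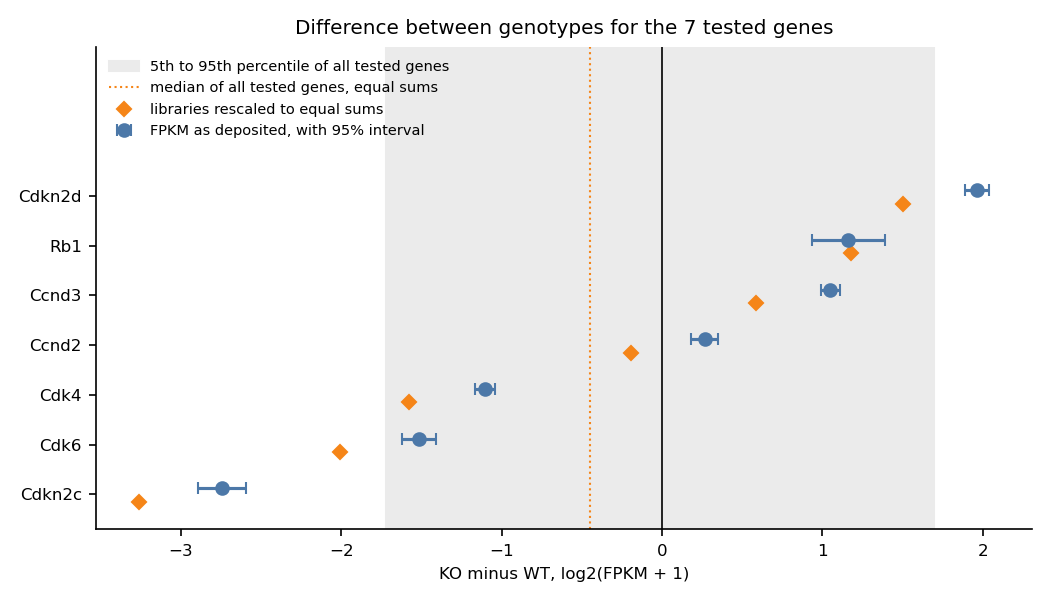
Difference between KO and WT on the log2(FPKM + 1) scale (horizontal axis) for the 7 tested genes (vertical axis), as deposited (circles, 95% interval) and with libraries rescaled to equal sums (diamonds). The grey band spans the 5th to 95th percentile of all tested genes, the dotted line is their median of -0.45 with equal sums, and Ccnd2 alone changes sign, from 0.27 to -0.19.

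The other CDK inhibitors and pocket proteins, proteins related to RB, were higher in KO in 3 of 4 tested cases, fell in none and did not pass in 1 (median log2 change 0.83, against -0.02 for all tested genes). Cdkn2b, also in this list, went the other way but lay under the minimum mean and was not tested. It had 0.803 ± 0.639 FPKM in WT, from 48 reads, and was at 0 in all KO libraries. Of all tested genes 38.0% rose and 40.4% fell. Cdkn1a, which encodes the p53-induced inhibitor p21, rose 2.22-fold from 187 ± 7.32 to 414 ± 6.39 FPKM (log2 change 1.15, limma adjusted p = 6.79e-08). Cdkn1c, which encodes p57, rose from 0.267 ± 0.113 to 1.86 ± 0.523 FPKM and Rbl2, which encodes p130, from 0.803 ± 0.102 to 1.58 ± 0.129, and both reached the minimum mean only through KO. Cdkn1c and Rbl2 share 30.7% and 21.0% of their exonic bases with other genes. Rbl1, which encodes p107, had 2.49 ± 0.0282 FPKM in WT and 2.49 ± 0.251 in KO and did not pass, but passed as lower with equal sums (log2 change -0.39).

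In the CDK2 arm, which follows CDK4 and CDK6 at the entry to S phase, 0 of 8 tested genes rose, 5 fell and 3 did not pass (median -0.26). With equal sums all 8 fell. Of all tested genes 40.4% fell as deposited and 59.0% with equal sums, where their median was -0.45. The largest falls were those of Cdc25a, the phosphatase that activates CDK2, from 2.40 ± 0.176 to 0.851 ± 0.128 FPKM (over the minimum mean only through WT), and of Mnat1, the assembly subunit of the CDK-activating kinase, from 9.44 ± 0.659 to 6.83 ± 0.388. The chaperones that fold CDK4 and CDK6 fell in 3 of 3 cases (median -0.58). Cdc37, which recruits kinases to HSP90, fell 1.50-fold from 159 ± 5.64 to 106 ± 5.09 FPKM, Hsp90aa1 fell 1.81-fold and Hsp90ab1 1.38-fold.

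Genes for the turnover of D cyclins, cyclin E and p27 had no common direction: 7 of 15 tested rose, 3 fell and 5 did not pass (median 0.06), and with equal sums 2 rose and 9 fell. The shares over all tested genes were 38.0% risen and 40.4% fallen, and 22.7% and 59.0% with equal sums. Ubac1, a subunit of a ubiquitin ligase for p27, rose 2.67-fold from 8.64, 10.5 and 11.7 FPKM in the WT libraries to 25.2, 28.3 and 28.9 in the KO libraries. Fbxo4, an F-box protein described as acting on cyclin D1, rose 1.68-fold. Cops5, the catalytic subunit of the COP9 signalosome, fell 1.50-fold from 67.3 ± 0.868 to 44.9 ± 1.45 FPKM and Cul4a, a cullin scaffold, fell 1.32-fold.

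Of the E2F and DP factors, some of which are held back by RB, 4 of 8 tested rose and 4 fell (median 0.20), and with equal sums 3 rose and 4 fell. Among all tested genes 38.0% rose and 40.4% fell, and with equal sums 22.7% and 59.0%. E2f2 rose 6.61-fold from 2.08 ± 0.115 to 13.8 ± 0.280 FPKM and the repressor E2f8 3.01-fold to 2.99 ± 0.276. Tfdp1, the DP partner of E2F proteins, fell 2.26-fold from 55.7 ± 0.178 to 24.6 ± 2.41 FPKM and E2f3 2.25-fold from 2.05 ± 0.267 to 0.912 ± 0.0815. E2f8 reached the minimum mean only through KO and E2f3 only through WT. Among the MuvB core, B-MYB and FOXM1, which act with pocket proteins or in G2, 1 of 5 tested rose and 4 fell (median -0.60). These counts too are read against 38.0% risen and 40.4% fallen among all tested genes. Lin37 rose 1.62-fold to 90.5 ± 2.03 FPKM, while Lin52 fell 1.75-fold and Mybl2, which encodes B-MYB, 1.58-fold. The named genes were chosen on the log2(FPKM + 1) scale, and Foxm1, over the minimum mean only through WT, fell by a larger factor in FPKM, 2.03-fold.

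Of the S phase genes under E2F control, 21 of 27 tested fell, 5 rose and 1 did not pass (median -0.43), beside 40.4% lower among all tested genes. With equal sums 25 were lower and 2 higher, beside 59.0% lower among all tested genes. Mcm10, a replication initiation factor, fell 2.86-fold from 4.89 ± 0.146 to 1.71 ± 0.240 FPKM and Ung, a uracil glycosylase, 2.66-fold. Rrm2, a ribonucleotide reductase subunit, rose 2.59-fold from 178 ± 1.04 to 462 ± 4.25 FPKM and Slbp, the histone mRNA stem-loop binding protein, 1.58-fold. G2 and M phase genes split, with 6 of 16 risen, 7 fallen and 3 not passing (median 0.05), and 1 higher and 10 lower with equal sums. The shares higher among all tested genes were 38.0% as deposited and 22.7% with equal sums. Top2a, a topoisomerase, rose 1.63-fold and Mki67, a proliferation marker, rose 1.57-fold, the latter not passing with equal sums (log2 change 0.16). Ccnb2, which encodes cyclin B2, fell 1.63-fold and Ube2c, a ubiquitin-conjugating enzyme of mitosis that shares 22.8% of its exonic bases with other genes, fell 1.52-fold.

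**Figure D4:**
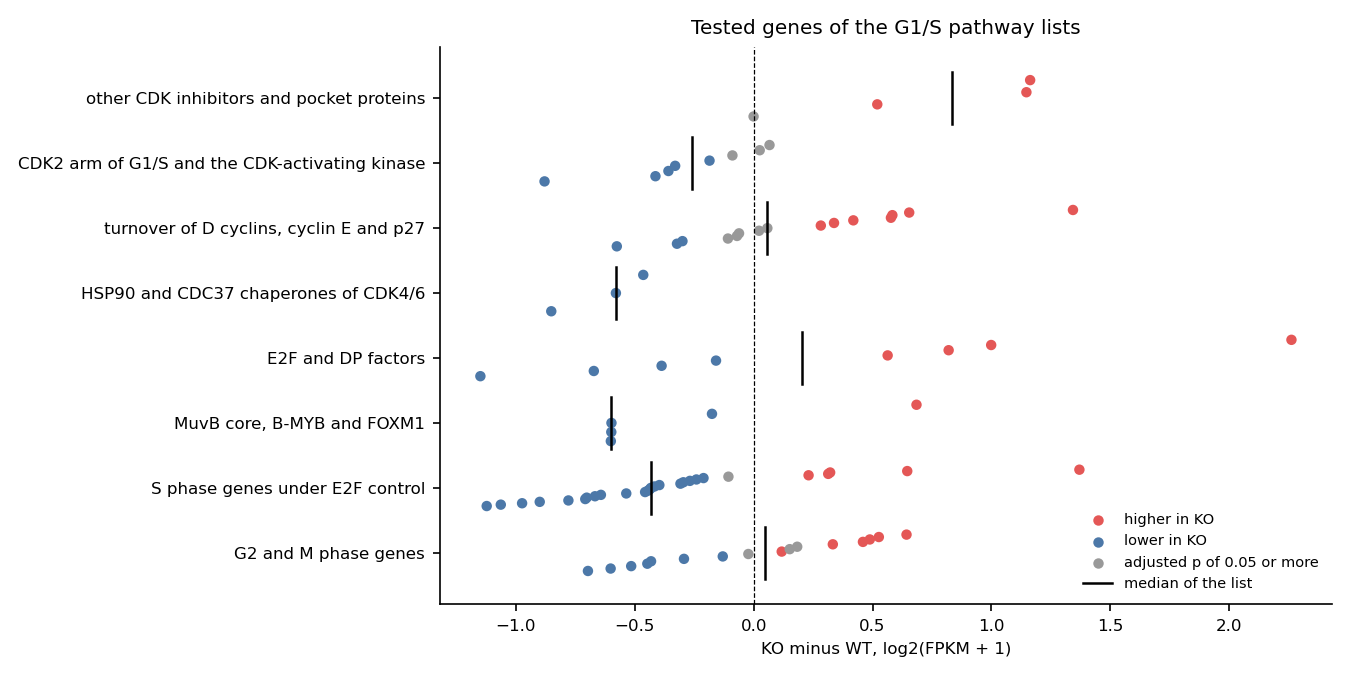
Difference between KO and WT on the log2(FPKM + 1) scale (horizontal axis) for each tested gene of the 8 pathway lists (rows), coloured by the limma call, with the list's median as a black line. S phase genes lie mostly to the left with a median of -0.43, and E2F and DP factors spread from Tfdp1 at -1.15 to E2f2 at 2.26.

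The genes most alike in pattern were sought by Pearson's r of log2(FPKM + 1) over the 6 libraries, in which the genotypes form 2 clusters that dominate r. For Cdkn2d, the tested member with the largest rise on that log2 scale (Rb1 rose by a larger factor in FPKM), these were Chchd7 (r = 0.99999), Gpi1 (r = 0.99998) and Ppic (r = 0.99996). For Cdkn2c, the tested member with the largest fall, they were Mrpl34 (r = 0.99991), Wdr55 (r = 0.9999) and Noc4l (r = 0.99988). Their sizes of change differed: Gpi1 went from 73.6 to 174 FPKM and Ppic from 0.0981 to 25.8.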

How the data were processed

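The authors deposited FPKM values (scaled for gene length and a library factor) for 47643 genes in 3 WT and 3 KO libraries. Per the labels' protocols, Smart-seq2 gave the cDNA and Nextera XT the libraries. Per the submitters' processing notes, CASAVA, bcl2fastq, STAR 2.5.3a and DESeq2 1.18.1 were used with mm10; for the counter, its annotation and its strand setting, the answer is not given in the sources used here.

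From these values, whole reads were recovered by dividing each FPKM by the step of 1 read at the exonic length in GENCODE M21 (GRCm38), within 0.001 of a whole number: 16481 genes, 9 of the 10 members among them. For 4640 genes, Cdkn2d included, a length was searched for and the read number is the smallest the values allow. Replicates differed beyond sampling noise, with a chi-square per gene between 2.51 and 3.19.

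limma 3.58.1 (R 4.3.3) was fitted on log2(FPKM + 1) with trended empirical Bayes moderation, two-sided, with Benjamini-Hochberg adjustment over 9108 genes averaging 1 FPKM or more. The fit was also run on simulated libraries in which only a small part of the genes was changed. Most tested genes differed in the real data, so that run does not bear on the calls made here. Ratios between members were taken within a library and compared by exact two-sided permutation. Alternatives were another pseudocount, other minimum means, rescaling to equal sums (also, added after seeing the data, without the 10 most abundant genes), quantile normalization, limma-voom on recovered reads, a replicate block and leaving out each library. Of each pathway list the 2 called genes with the largest rise and fall in log2(FPKM + 1) are named, and all of a list of at most 5, and for the members with the largest rise and fall the 3 tested genes most alike. The members and lists were chosen with earlier results of these data known. Tables and figures used Python 3.11.15, pandas 2.3.3 and matplotlib 3.10.9. Some marker genes of other cell types are not reported here by name.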

Additional observations from a re-analysis of the deposited data

How the results depend on the processing

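Each of the 7 tested members (6 with a minimum mean of 5 FPKM, where Rb1 was not tested) kept its direction and its side of the threshold under the alternatives run, except Ccnd2, whose log2 change was -0.19 with libraries rescaled to equal sums, which lowers KO relative to WT because KO sums are larger. Without the 10 most abundant genes in the sums it was 0.22. The count of members lower in KO was 5 without a minimum mean, because more genes were tested. With equal sums 2069 genes were higher, and 12 in the pathway lists. With a minimum mean of 5 FPKM, where fewer genes were tested, 2072 genes were higher and 2383 lower, and 17 pathway genes were higher. Without a minimum mean 5769 genes were lower. The log2 ratio of Cdkn1b to D cyclins turned to -0.36 with 1 FPKM added to each sum, where the added 1 exceeds Cdkn1b itself. No pairing by the replicate numbers of the titles was seen in the values. Deviations of same-numbered libraries correlated at 0.01, -0.01 and -0.02, and not every library correlated best with its own number. Such correlations cannot tell whether same-numbered libraries shared a mouse, litter or day. With a replicate block 3420 genes were higher and 3620 lower, against 3464 and 3676, and the 7 members kept their calls. Ccnd1, Cdkn2a and Cdkn1b rest on few reads: 57 and 0, 46 and 0, and 31 and 96 in WT and KO.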
